A study of Mus musculus with 9 samples.

Results

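Fatty acid oxidation and lipid handling was followed through 41 genes fixed by name: the carnitine shuttle, the enzymes of the mitochondrial and peroxisomal oxidation spirals, the proteins that take up, bind and activate fatty acids, 2 lipid-sensing receptors of the PPAR family and 2 lipases. All 41 were among the 55471 gene identifiers counted, and 37 had enough counts to be tested among 14918 genes. The RNA came from mouse OT-I CD8+ T cells, whose transgenic receptor recognises an ovalbumin peptide. The control group, labelled Control (Bdh1-WT;shCtrl), had 4 libraries from cells with an intact Bdh1 gene and a short hairpin RNA against firefly luciferase. The other group, labelled DKO (Bdh1-KO;shOxct1), had 5 libraries from Bdh1-knockout cells with a hairpin against Oxct1, so that its second lesion is a knockdown. Bdh1 and Oxct1 encode the first enzymes of ketone body use. Cells of both groups were activated in culture with antibodies to CD3 and CD28 and with IL-2, sorted on the Ametrine reporter, transferred into CD45.1 C57BL/6 hosts that kept their own immune cells, and sorted again on day 7 after infection with LmOVA, a Listeria strain that carries ovalbumin. The labels give neither the animals' ages nor whether replicates came from separate donors, so the p-values measure the spread between these libraries, which may be partly technical.

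Long-chain fatty acids enter a cell with the help of transport proteins, are joined to coenzyme A by acyl-CoA synthetases, and cross into mitochondria as carnitine esters. There a repeating spiral of dehydrogenation, hydration, a second dehydrogenation and thiolysis shortens the chain and releases acetyl-CoA, the same product that ketone bodies yield. Peroxisomes run a related spiral for very long and branched chains. In CD8+ T cells this pathway is known above all from memory cells, while effector cells of the kind sequenced here are known for glucose use. RNA levels do not measure flux through any of these steps.

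The libraries held 45205993 to 59853080 counts in genes. With CPM, counts scaled to library size, as the unit, control and DKO means for Oxct1 were 63.2 ± 5.73 and 5.16 ± 0.370 (SD, n = 4 and 5), and for Bdh1 30.5 ± 4.17 and 10.6 ± 1.24, so both targeted genes were lower in the libraries labelled DKO. All 8 CD8 T cell markers were above 1 CPM. Adipoq had 4 counts in all and Lep had 0, and adipocyte and stromal markers summed to 20.7 to 34.9 CPM in control and 18.8 to 25.8 CPM in DKO, nearly all of it Pecam1. The summed CD8 T cell markers were at 7031 to 9379 CPM in control and 6268 to 6906 CPM in DKO, and the 20 cell cycle genes at 474 to 592 CPM in control and 705 to 1393 CPM in DKO. Neither pair of ranges overlapped (exact permutation test, two-sided, p = 0.0159 for each, the smallest that relabelling the libraries allows, adjusted p = 0.0556 over 7 lists). Myeloid markers summed to 437 to 723 CPM in control and 475 to 531 CPM in DKO (9 of 15 genes above 1 CPM). Most of the myeloid sum was Itgax, with means of 494 CPM in control and 408 CPM in DKO. B cell markers summed to 187 to 271 and 196 to 216 CPM (3 of 12), erythroid and platelet markers to 11.4 to 39.1 and 17.0 to 56.3 CPM (6 of 10), and CD4 T cell markers to 30.7 to 39.3 and 34.6 to 46.6 CPM (2 of 4). The B cell gene Pax5 had 0 counts over all libraries, and Cd4 had 119. The part of these lists in the results below was not tested. Xist, the RNA of the inactive X chromosome, was at 0 to 0.351 CPM in control and 11.4 to 23.6 CPM in DKO. The labels do not give the sex of the donor animals, and a difference that goes with Xist cannot be told apart from the genotype in any comparison here. Control replicate 1 stood apart from the other libraries on the first principal component, at -79.1 against -7.3 to 23.5, and control replicate 3 on the second. Results for a number of genes are therefore also given without control replicate 1. Those for Slc27a1 and Acoxl are also given without control replicate 3.

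Across the pathway the 2 groups were close. Of the 37 tested members 2 passed the quasi-likelihood test of edgeR at a Benjamini-Hochberg adjusted p of 0.05 over all 14918 genes, which is 5.41% of the members against 2.83% of all genes tested. The fatty acid transporter gene Slc27a1 was lower in DKO, where 1.51% of all genes passed in that direction. The acyl-CoA oxidase-like gene Acoxl was higher in DKO, where 1.32% of all genes passed. An unadjusted p under 0.05 was reached by 7 members (18.9%), against 16.0% of all genes, and the CPM ranges of the groups did not overlap for 4 members (10.8%), against 8.71% of all genes. Both shares of the members were near those of all genes. In sign, 14 members were higher and 23 lower in DKO. Their median log2 fold change (DKO against control) was -0.04, against -0.01 for all genes tested, and 28 of 37 lay within 0.25 of 0 on the log2 scale. The median size of a member's change was 0.14 on the log2 scale, against 0.18 for all genes. Without control replicate 1 the members split 14 to 23 again, with a median of -0.07, and 4 of them passed, of 749 genes that did. When DKO replicate 1, 3 or 4 was left out in turn, 0 members passed in edgeR, while 4, 6 and 6 had an unadjusted p under 0.05. With control replicates 1 and 3 both left out, an alternative chosen after seeing the data, 3 members passed: Acadm, Acadsb and Slc27a1, but not Acoxl. The number of all genes that passed also changed with the libraries left out, as given in the last section. The share of all genes at an unadjusted p under 0.05 is not given for the runs with libraries left out. These counts of members are therefore not read as a result about the members.

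**Figure D1:**
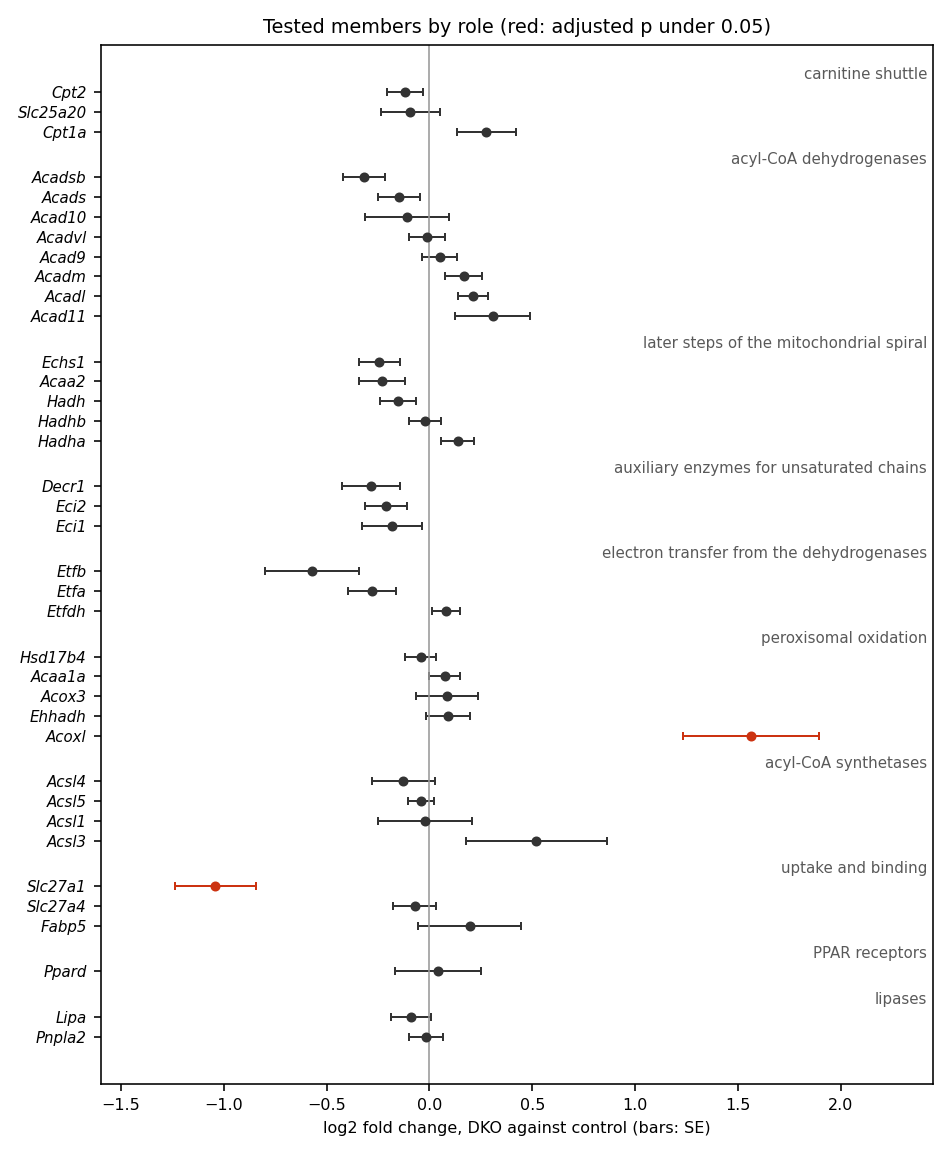
The log2 fold change of each of the 37 tested members, DKO against control, on the horizontal axis, with bars of 1 SE, grouped by role. Most points lie within 0.25 of 0, and the 2 in red, Slc27a1 at -1.04 and Acoxl at 1.56, passed an adjusted p of 0.05.

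Slc27a1 and Acoxl are the members that passed in edgeR with all libraries, and Cpt1a is the entry step of the pathway. The 250 bases before an annotated start of each are therefore shown. The letters are from RefSeq (GRCm38.p6), 5′ to 3′ on the gene's strand, and capitals mark every match to the nuclear receptor element AGGTCA, the E-box CACGTG and the CCAAT box CCAAT on either strand. The element is the letter group that PPAR receptors and their partners are known to read, in pairs.

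Slc27a1, plus strand, chr8:71570344-71570593, the third of its 3 RefSeq starts: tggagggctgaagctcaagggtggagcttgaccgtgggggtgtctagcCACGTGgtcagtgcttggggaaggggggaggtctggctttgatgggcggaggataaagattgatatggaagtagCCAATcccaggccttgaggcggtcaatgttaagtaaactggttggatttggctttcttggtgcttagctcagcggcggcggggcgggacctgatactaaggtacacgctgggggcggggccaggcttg

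Acoxl, plus strand, chr2:127854378-127854627: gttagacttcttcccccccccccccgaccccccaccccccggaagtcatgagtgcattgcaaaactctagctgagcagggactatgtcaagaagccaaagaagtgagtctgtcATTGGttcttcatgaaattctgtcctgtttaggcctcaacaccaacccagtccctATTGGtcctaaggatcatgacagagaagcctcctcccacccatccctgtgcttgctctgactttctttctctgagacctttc

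Cpt1a, plus strand, chr19:3323051-3323300: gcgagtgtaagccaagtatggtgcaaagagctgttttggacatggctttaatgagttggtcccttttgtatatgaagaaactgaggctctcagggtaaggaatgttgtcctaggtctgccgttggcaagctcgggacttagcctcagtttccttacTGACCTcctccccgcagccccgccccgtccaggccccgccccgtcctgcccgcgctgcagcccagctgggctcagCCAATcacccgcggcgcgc

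A RefSeq promoter window was found for 35 of the 41 members. The windows compared ran from 250 bases before to 50 after a start, and a gene counted as holding a motif if any of its windows did. AGGTCA was in 6 of the 35 members (17.1%: Cpt1a, Cpt1c, Acadm, Acadvl, Echs1 and Acsl6), against 18.1% of 27025 genes. The paired form AGGTCANAGGTCA was in 0 of 35, against 0.0481% of genes. TCAAGGTCA, the longer element known for the receptor ERRalpha, contains the 6-letter one and was in 1 member (2.86%: Acsl6), against 0.466% of genes. The E-box CACGTG was in 1 member (2.86%: Slc27a1), against 8.09% of genes, and CCAAT in 18 (51.4%), against 41.1%. A match is a description of letters only. All 3 printed windows end at a RefSeq start that lies downstream of the gene's GENCODE start. Of the windows at the 3 RefSeq starts of Slc27a1, that printed above held the most matches, 2, and the only E-box. The window at chr8:71568621-71568870, which ends just upstream of the GENCODE start, held 1 match, a CCAAT box. The window at chr8:71569347-71569596 held 0 matches. The printed letters therefore do not stand for the other starts of Slc27a1. The Acoxl window held 2 CG pairs, against 10 in the Slc27a1 window and 14 in that of Cpt1a.

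Uptake and binding held the member with the clearest decrease. Slc27a1 (also called Fatp1, a transporter that also activates long-chain fatty acids) lies on the plus strand of chromosome 8, from 71568882 to 71587302 in GRCm38. Its level in the 4 control libraries was 6.46, 5.61, 8.56 and 8.06 CPM, and in the 5 DKO libraries 2.75, 3.47, 3.49, 2.90 and 4.80 CPM. Every DKO library was below every control library, with DKO replicate 5 the nearest. In bulk RNA, fewer cells that express a gene and less of its RNA per cell cannot be told apart. The mean of control was 7.17 ± 1.37 CPM (SD, n = 4) and that of DKO 3.48 ± 0.809 CPM (SD, n = 5), which is 48.6% of control and a log2 fold change of -1.04 ± 0.20 (SE; edgeR adjusted p = 0.0188). Without control replicate 1 the log2 fold change was -1.10 (adjusted p = 0.0134) and without control replicate 3 it was -0.94 (adjusted p = 0.0464). The call was lost without control replicate 4 (adjusted p = 0.0622) and without DKO replicates 1, 3 or 4 (0.0541, 0.0550 and 0.0517), at log2 fold changes between -1.04 and -0.97. Of the 28 other genes tested within 300 kb, 1 passed the threshold: Ankle1, a nuclease gene, at a log2 fold change of 1.62, in the other direction.

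Slc27a4, the related transporter and the member of this role with the highest level per transcript length (13.7 CPM per kb over all libraries), was at 46.4, 62.0, 59.0 and 61.1 CPM in control and 50.8, 54.5, 56.7, 48.7 and 61.0 CPM in DKO. The groups overlapped, and the log2 fold change was -0.07 ± 0.11 (SE; edgeR adjusted p = 0.788). Without control replicate 1, the lowest library for Slc27a4, it was -0.17 (adjusted p = 0.243, edgeR). Per transcript length, Slc27a1 made up 11.6 to 17.4% of the sum of both transporters in control and 7.28 to 10.3% in DKO, so that Slc27a4 was the main one in every library. Fabp5, a cytosolic fatty acid carrier, ranged from 1.68 to 3.16 CPM in control and from 2.27 to 3.68 CPM in DKO (adjusted p = 0.750, edgeR).

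Of the 5 peroxisomal members Acoxl was the 1 that passed. It resembles the acyl-CoA oxidases that start the peroxisomal spiral, and it lies on the plus strand of chromosome 2, from 127838876 to 128123873 in GRCm38. Its level was 0.887, 1.17, 0.553 and 2.15 CPM in control and 3.68, 3.18, 4.14, 3.98 and 2.77 CPM in DKO. The groups did not overlap, and control replicate 4 came closest to the DKO libraries. The mean of control was 1.19 ± 0.686 CPM (SD, n = 4) and that of DKO 3.55 ± 0.567 CPM (SD, n = 5), a log2 fold change of 1.56 ± 0.33 (SE; edgeR adjusted p = 0.0324). Without control replicate 1 it was 1.43 (adjusted p = 0.0401), without control replicate 3 it was 1.33 (0.0464), and without control replicate 4 it was 2.02 (0.0101). The call was lost without control replicate 2 (adjusted p = 0.0729) and without DKO replicate 1, 2, 3, 4 or 5 in turn (0.0761, 0.0552, 0.0829, 0.0744 and 0.0506), with Acoxl higher in DKO each time. With control replicates 1 and 3 both left out it was 1.08 (adjusted p = 0.0627). Even in DKO, Acoxl was a low transcript, at 1.25 CPM per kb.

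Of the 7 other genes tested within 300 kb of Acoxl, 1 passed: the mitotic checkpoint kinase gene Bub1, which points the other way from a start 7.01 kb from the GENCODE start of Acoxl, further upstream than the RefSeq start whose window is printed above. Bub1 rose from 2.17 ± 1.02 to 9.62 ± 4.32 CPM (SD, n = 4 and 5), a log2 fold change of 2.14 (adjusted p = 0.0177, edgeR). Bub1 is 1 of the 20 cell cycle genes whose summed level was higher in every DKO library than in any control library. Whether the Acoxl difference goes with that of Bub1 or of the cycle genes was not tested.

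Among the other peroxisomal members, Acaa1a, a thiolase at 73.1 CPM per kb of its principal transcript, the highest of the 41 on that scale, was at 137, 115, 119.7 and 129 CPM in control and 135, 130.0, 136, 129 and 128 CPM in DKO. Every DKO value lay inside the control range, and the log2 fold change was 0.07 ± 0.07 (SE; edgeR adjusted p = 0.678). Acox3, an oxidase of branched chains, was at 37.1 to 62.2 CPM in control and 45.3 to 62.2 CPM in DKO. Hsd17b4, which carries out the middle steps of the spiral, was at 82.6 to 89.6 and 76.6 to 90.6 CPM. Ehhadh, the other bifunctional enzyme, was at 11.6 to 14.6 and 12.9 to 14.9 CPM. Their log2 fold changes were 0.09, -0.04 and 0.09. Without control replicate 1, its lowest library, the value for Acox3 was -0.07 (adjusted p = 0.779, edgeR). Ehhadh lies 9.63 Mb from Bdh1 on the same chromosome, and 0 of the 9 genes tested within 300 kb of it passed in edgeR.

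**Figure D2:**
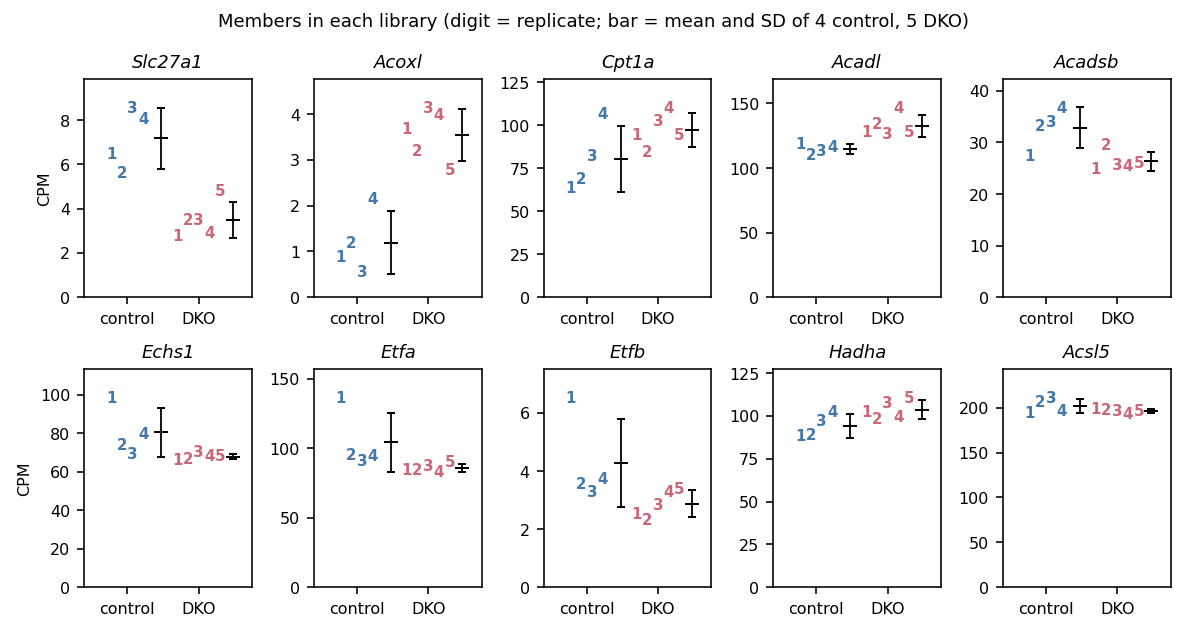
CPM of 10 members in each library on linear axes from 0, control on the left of each panel and DKO on the right, with the replicate number as the point and a bar for the mean and SD of 4 control or 5 DKO libraries. Slc27a1, Acoxl, Acadl and Etfa show no overlap between the groups, and control replicate 1 is the highest library for Echs1, Etfa and Etfb.

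The carnitine shuttle carries long chains across the mitochondrial membranes. Cpt1a encodes the outer-membrane transferase that sets the rate of entry. Its level was 63.5, 69.0, 82.1 and 107 CPM in control and 94.4, 84.3, 103, 110.4 and 94.3 CPM in DKO. The 3 lowest libraries were control replicates 1, 2 and 3, but control replicate 4 was among the highest, so the groups overlapped. The log2 fold change was 0.28 ± 0.14 (SE; edgeR adjusted p = 0.381), without control replicate 1 it was 0.17 (adjusted p = 0.522), and without control replicate 4 it was 0.44 (adjusted p = 0.105). Cpt1a made up at least 99.4% of the summed level per length of the 3 Cpt1 genes in every control library and at least 99.8% in every DKO library.

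Cpt2, which frees the chain from carnitine inside the mitochondrion, was at 31.4, 27.7, 30.4 and 33.0 CPM in control and 27.1, 31.2, 28.2, 26.8 and 27.7 CPM in DKO. Cpt2 had a log2 fold change of -0.12 ± 0.09 (SE; edgeR adjusted p = 0.558). Slc25a20, the inner-membrane carrier, was at 73.0, 50.6, 40.1 and 56.6 CPM in control and 48.6, 49.3, 50.3, 54.6 and 55.5 CPM in DKO. All 5 DKO values sat inside the wider control range, whose ends were control replicates 1 and 3. Its log2 fold change was -0.09 ± 0.14 (SE; edgeR adjusted p = 0.799) and turned to 0.06 without control replicate 1 (adjusted p = 0.815). The shuttle's other isoforms were hardly counted: Cpt1b, the muscle form, had 2 counts over all control and 3 over all DKO libraries, and Cpt1c, the neuronal form, had 28 and 10 counts. Cpt1b shares 81.4% of its exon bases with another gene on the same strand, so its count is uncertain.

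The acyl-CoA dehydrogenases take the first oxidation step, each for a range of chain lengths. Acadl (long chains) had the highest level per length of the 8 members in this role, at 65.0 CPM per kb. It was at 118, 109.9, 114 and 117 CPM in control and 128, 134, 127, 147 and 128 CPM in DKO. All DKO libraries were above all control libraries, but the difference was small, with a log2 fold change of 0.21 ± 0.07 (SE; edgeR unadjusted p = 0.0146, adjusted p = 0.176). Acadsb, which acts on short branched chains from isoleucine, was at 27.3, 33.2, 34.0 and 36.8 CPM in control and 24.9, 29.6, 25.6, 25.4 and 26.0 CPM in DKO. The groups met at control replicate 1 and DKO replicate 2, the lowest control and the highest DKO library. Its log2 fold change was -0.32 ± 0.10 (SE; edgeR unadjusted p = 0.0096, adjusted p = 0.141), and without control replicate 1 it was -0.41 (adjusted p = 0.0170).

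Acadm (medium chains) was at 89.5, 70.1, 71.2 and 68.6 CPM in control and 84.5, 81.4, 84.6, 83.9 and 85.3 CPM in DKO. The DKO libraries lay above 3 of the control libraries and below control replicate 1. Its log2 fold change was 0.17 ± 0.09 (SE; edgeR adjusted p = 0.405) with all libraries and 0.25 ± 0.05 (SE; edgeR adjusted p = 0.0206) without control replicate 1. Of the other 5 members here, Acadvl (very long chains) ranged from 51.5 to 64.6 CPM over all libraries, Acads (short chains) from 28.2 to 41.4, Acad9, known also for its part in complex I assembly, from 29.4 to 34.1, Acad10 from 3.38 to 5.75 and Acad11 from 3.92 to 7.94 CPM. None of these 5 passed in edgeR, their adjusted p running from 0.449 to 0.963 with 0 at an unadjusted p under 0.05. Acadvl shares 42.9% of its exon bases with Dvl2 on the opposite strand, and its unstranded count leaves such reads out. Per length, Acadl made up 37.0 to 38.7% of the 8 dehydrogenases in control and 38.7 to 44.3% in DKO.

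None of the 5 members in the later steps of the mitochondrial spiral passed in edgeR, and 1 of them had an unadjusted p under 0.05. Hadha, the large subunit of the trifunctional protein, was at 88.2, 89.0, 97.1 and 103 CPM in control and 102, 98.0, 108, 99.4 and 111 CPM in DKO. Hadha had a log2 fold change of 0.14 ± 0.08 (SE; edgeR adjusted p = 0.431). The partner subunit Hadhb was at 74.6 to 88.7 CPM in control and 78.2 to 85.6 CPM in DKO (-0.02 ± 0.08 on the log2 scale, SE). The ratio of Hadha to Hadhb per length was 0.507 to 0.609 in control and 0.585 to 0.691 in DKO, with an overlap. Hadh, the dehydrogenase for shorter chains, was at 54.3 to 63.9 CPM in control and 45.7 to 55.7 CPM in DKO (log2 fold change -0.15, adjusted p = 0.427, edgeR).

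Echs1, the short-chain hydratase, was at 98.5, 74.2, 69.2 and 79.9 CPM in control and 66.1, 66.9, 70.2, 68.1 and 68.2 CPM in DKO. Control replicate 1 was far above the rest, and the remaining controls were near the DKO libraries. The log2 fold change was -0.24 ± 0.10 (SE; edgeR unadjusted p = 0.0329, adjusted p = 0.263), and without control replicate 1 it was -0.14 (adjusted p = 0.215). Acaa2, the thiolase that closes the cycle and the highest of this role at 70.8 CPM per kb, was at 145, 108, 95.6 and 119 CPM in control and 90.1, 98.0, 102, 104 and 105 CPM in DKO. Acaa2 had a log2 fold change of -0.23 ± 0.11 (SE; edgeR adjusted p = 0.348), or -0.12 without control replicate 1 (adjusted p = 0.419).

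Unsaturated chains need isomerases and a reductase before they can be fully oxidised. Eci1, an isomerase, was at 67.4, 52.8, 36.4 and 47.8 CPM in control and 46.3, 43.6, 43.8, 49.1 and 42.5 CPM in DKO. The control libraries spanned the whole DKO range, and the log2 fold change was -0.18 ± 0.15 (SE; edgeR adjusted p = 0.594), or -0.03 without control replicate 1. Eci2 was at 22.7 to 27.6 CPM in control and 20.2 to 24.5 CPM in DKO, and the reductase Decr1 at 8.65 to 13.3 and 8.42 to 10.7 CPM. Their log2 fold changes were -0.21 and -0.29, with adjusted p of 0.344 and 0.355 (edgeR).

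The electrons of the dehydrogenases pass through the flavoprotein ETF and its oxidoreductase to the respiratory chain. Etfa, the alpha subunit, was at 136, 94.8, 90.8 and 94.4 CPM in control and 84.7, 84.2, 87.0, 82.7 and 89.9 CPM in DKO. The groups did not overlap, though control replicate 3 was within 1 CPM of DKO replicate 5. The log2 fold change was -0.28 ± 0.12 (SE; edgeR unadjusted p = 0.0343, adjusted p = 0.269), and it was -0.14 (adjusted p = 0.181) without control replicate 1. Etfb, the beta subunit, was at 6.52, 3.54, 3.27 and 3.73 CPM in control and 2.53, 2.32, 2.84, 3.27 and 3.39 CPM in DKO. The log2 fold change of Etfb was -0.57 ± 0.23 (SE; edgeR unadjusted p = 0.0279, adjusted p = 0.247), or -0.31 without control replicate 1 (adjusted p = 0.374).

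Etfb shares 58.2% of its exon bases with other genes on the same strand, where reads are left out as ambiguous, so its level is uncertain and cannot be set against that of Etfa, the other subunit of the same dimer. Etfdh, the oxidoreductase, was at 71.3 to 77.0 CPM in control and 75.4 to 81.6 CPM in DKO (0.08 ± 0.07 on the log2 scale, SE; edgeR adjusted p = 0.624). The ratio of Etfa to Etfdh per length was 2.05 to 3.02 in control and 1.76 to 1.92 in DKO, without overlap and with the top of the control range in control replicate 1.

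**Figure D3:**
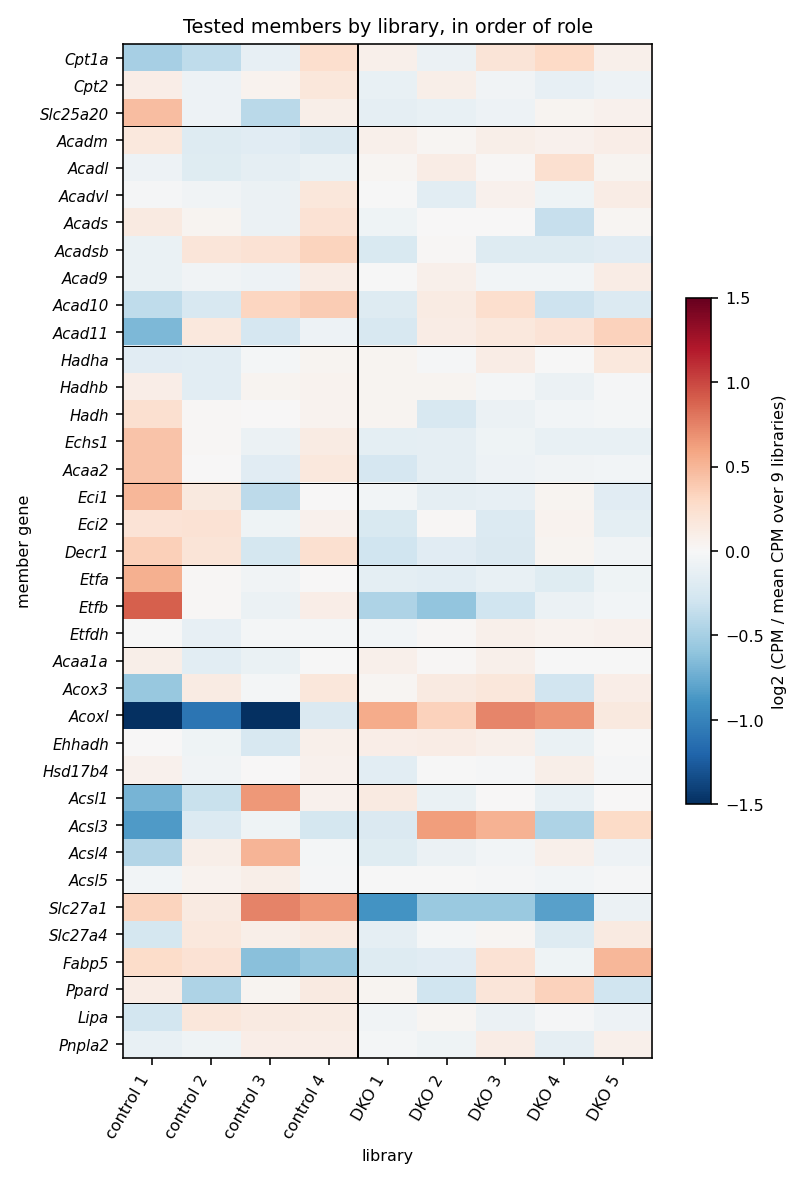
Log2 of each tested member's CPM over its mean across the 9 libraries, in rows ordered by role (lines separate roles), with the control libraries left of the vertical line. The colours stop at 1.5 in either direction, which cuts off Acoxl in control replicate 3. Acoxl and Slc27a1 show opposite colours on the 2 sides, and control replicate 1 is above the other controls in Hadh, Echs1, Acaa2, Etfa and Etfb.

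Acyl-CoA synthetases activate the chain before it is oxidised or stored. Acsl5 was the main one, at 194, 206, 211 and 197 CPM in control and 199, 197, 196, 193 and 197 CPM in DKO. These libraries were nearly level, and the log2 fold change was -0.04 ± 0.06 (SE; edgeR adjusted p = 0.804). Per length it made up 63.9 to 76.3% of the 5 Acsl genes in control and 68.9 to 72.7% in DKO, and Acsl4, which prefers arachidonic acid and lies on the X chromosome, made up 21.7 to 32.2% and 24.1 to 28.3%. Acsl4 was at 68.6 to 132 CPM in control and 81.9 to 98.5 CPM in DKO (log2 fold change -0.13, adjusted p = 0.734, edgeR). Without control replicate 1, the lowest library for Acsl4, it was -0.28 (adjusted p = 0.177, edgeR). Acsl1 was at 4.40 to 11.2 CPM in control and 6.57 to 7.81 CPM in DKO, and Acsl3 at 0.268 to 0.465 and 0.351 to 0.745 CPM (0.52 ± 0.34 on the log2 scale, SE; edgeR adjusted p = 0.501). Acsl6 had 16 counts over the control libraries, 14 of them in control replicate 4, and 16 over the DKO libraries.

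The PPAR receptors switch on many genes of this pathway when they bind fatty acids. Ppard was at 2.64, 1.77, 2.52 and 2.69 CPM in control and 2.51, 1.98, 2.77, 3.12 and 1.99 CPM in DKO. Its log2 fold change of 0.04 ± 0.21 (SE; edgeR adjusted p = 0.947) changed sign when control replicate 2 or DKO replicates 3 or 4 were left out. Ppara, the form known from liver, had 0 counts in all 4 control libraries, where 3 counts over the group would be 0.0145 CPM. In the DKO libraries it had 4, 0, 3, 0 and 5 counts, 12 in all, which is 0.0467 CPM. At this depth neither group had enough counts of Ppara for a test. Such floors cover counting error only.

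The lipases release fatty acids from stores. Pnpla2 (also called ATGL), which starts the breakdown of triglyceride in droplets, was at 102, 106, 119 and 119 CPM in control and 108, 106, 119, 101 and 116 CPM in DKO. The log2 fold change of Pnpla2 was -0.02 ± 0.08 (SE; edgeR adjusted p = 0.947). Lipa, the acid lipase of lysosomes, was at 61.2, 83.4, 81.0 and 80.3 CPM in control and 71.2, 75.2, 69.7, 73.1 and 70.2 CPM in DKO. The DKO libraries lay between control replicate 1 and the other controls. Its log2 fold change was -0.09 ± 0.10 (SE; edgeR adjusted p = 0.703), or -0.20 ± 0.05 (SE; edgeR adjusted p = 0.0644) without control replicate 1.

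In level, the members spanned a wide range. Acaa1a, Acaa2, Etfa, Acadl and Pnpla2 headed the list at 73.1 to 61.5 CPM per kb of principal transcript, and Acsl3 was the lowest tested member at 0.123 CPM per kb. The values are means over all 9 libraries. With all annotated exons as the length, Acaa1a was at 29.2 CPM per kb and Acaa2, at 70.8, headed the list. By that measure the same gene led in every role but the carnitine shuttle, where Cpt2 took the place of Slc25a20. Where genes on opposite strands overlap, the unstranded count leaves reads out. Summing the strand columns gave 1.23 times the unstranded count for Acaa1a, 1.38 times for Acsl5, 1.33 times for Eci2, 1.56 times for Acad11 and 2.17 times for Acadvl, so the levels of these genes are uncertain. Acaa1a is also close in sequence to Acaa1b, and Fabp5 to its pseudogenes, and reads that map to several places are not counted.

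**Figure D4:**
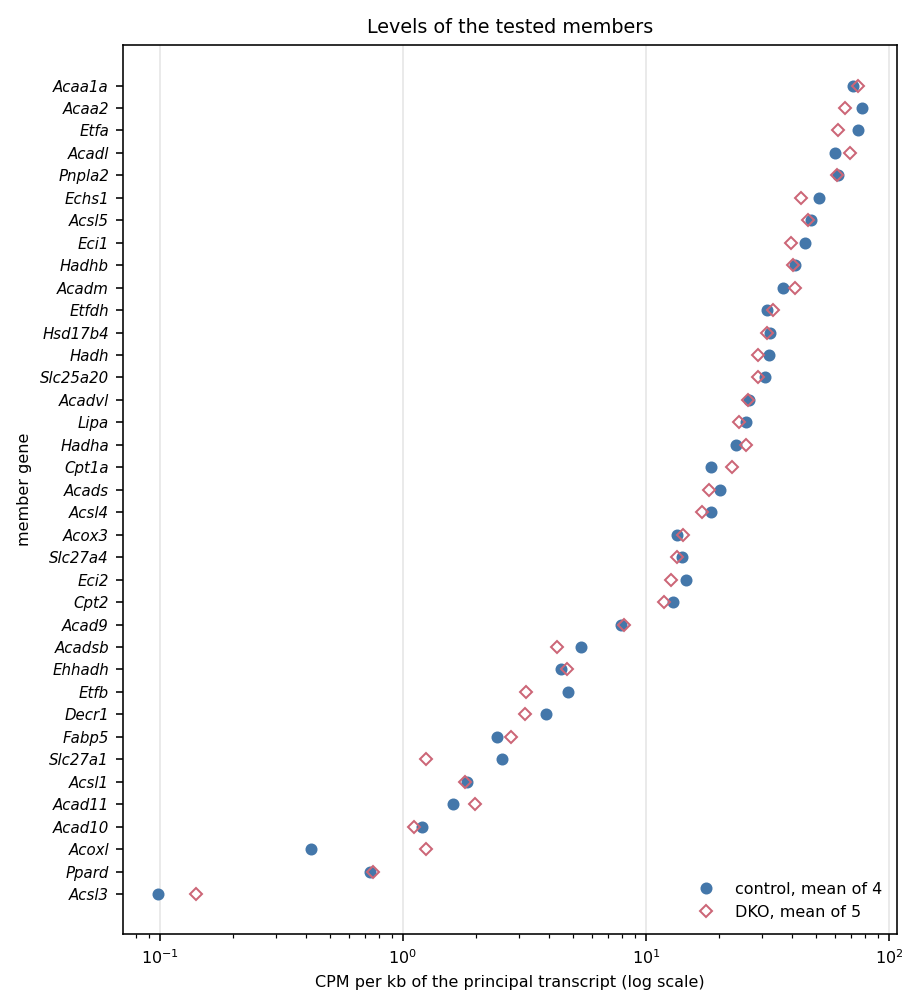
Mean level of each tested member in CPM per kb of its principal transcript, on a log scale, in control (filled circles, mean of 4) and DKO (open diamonds, mean of 5), sorted by the mean over all libraries. The paired symbols lie close together for most genes, and they are furthest apart for Acoxl and Slc27a1.

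A wider list of 111 other lipid genes was described in the same way: 110 were matched, 83 were tested and 3 passed in edgeR (3.61%), against 2.83% of all genes. In sign 40 were higher and 43 lower, with a median log2 fold change of -0.01. An unadjusted p under 0.05 was reached by 19 (22.9%), against 16.0% of all genes, and the groups did not overlap for 8 (9.64%), against 8.71%. By group, 0 of 26 other oxidation genes passed (8 at an unadjusted p under 0.05), 2 of 16 other uptake and activation genes (4), 1 of 20 droplet and triglyceride genes (4) and 0 of 21 regulators (3). Cd36, Fabp4, Lpl, Plin1, Ppargc1a and Pdk4 were among the 27 matched genes with too few counts to test.

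Agpat2, which adds the second chain on the way to phosphatidic acid and triglyceride, was at 29.7, 30.6, 26.3 and 28.6 CPM in control and 17.8, 20.5, 18.0, 18.1 and 20.5 CPM in DKO. Every DKO library was below every control library, with a log2 fold change of -0.60 ± 0.09 (SE; edgeR adjusted p = 0.00675). Acbd5, an acyl-CoA binding protein of the peroxisomal membrane, was at 72.9, 96.7, 88.9 and 84.1 CPM in control and 62.4, 63.3, 57.0, 56.0 and 60.5 CPM in DKO. It fell by 0.52 on the log2 scale (SE 0.09, with an edgeR adjusted p of 0.0140), and the adjusted p was 0.0501 without DKO replicate 3. Aqp9, a channel for glycerol and other small solutes, was at 41.2, 41.04, 39.2 and 35.7 CPM in control and 66.4, 58.2, 54.5, 53.1 and 49.6 CPM in DKO. It rose by 0.52 on the log2 scale (SE 0.10, adjusted p = 0.0194, edgeR), a call that was lost without control replicate 4 (adjusted p = 0.0644) or DKO replicates 1 or 3 (0.0508 and 0.0512). Within 300 kb, 0 of 13 genes tested passed near Agpat2, 0 of 2 near Aqp9 and 1 of 9 near Acbd5, the mitotic kinase gene Mastl at a log2 fold change of 1.56.

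**Figure D5:**
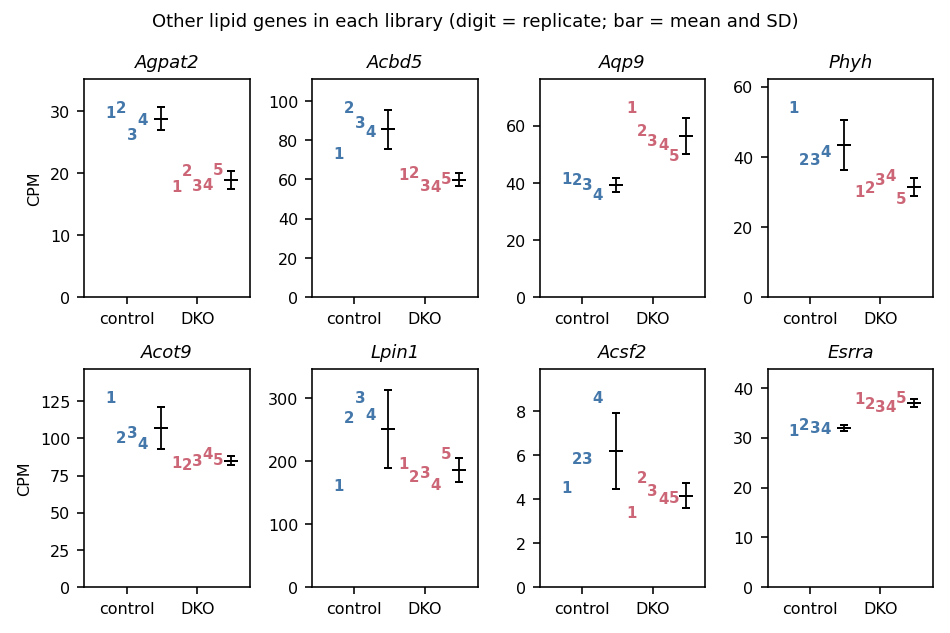
CPM of 8 other lipid genes in each library on linear axes from 0, with the replicate number as the point and bars for mean and SD (4 control, 5 DKO). Agpat2, Acbd5, Aqp9, Phyh, Acot9 and Esrra show no overlap between the groups, and the first 3 passed an adjusted p of 0.05.

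Of the genes next in order of p, 9 are described here, and none of them passed with all libraries. Without control replicate 1, 4 of them did: Lpin1, Acot9, Phyh and Acsf2. Phyh, which starts the alpha-oxidation of phytanic acid in peroxisomes, was at 54.1, 39.3, 39.0 and 41.5 CPM in control and 30.1, 31.0, 33.5, 34.5 and 28.0 CPM in DKO, without overlap (-0.47 ± 0.11 on the log2 scale, SE; edgeR adjusted p = 0.0549). Without control replicate 1 the value for Phyh was -0.36 (adjusted p = 0.0302). Acot9, a mitochondrial thioesterase, was at 127, 100.2, 103 and 96.4 CPM in control and 83.8, 81.9, 84.6, 89.8 and 85.2 CPM in DKO, also without overlap (log2 fold change -0.33, adjusted p = 0.0875), and the value was -0.25 without control replicate 1 (adjusted p = 0.0278). Esrra, the gene of the receptor ERRalpha that drives oxidation genes, was at 31.3, 32.7, 32.0 and 31.8 CPM in control and 37.7, 36.9, 36.3, 36.1 and 38.0 CPM in DKO. Both groups were tight and did not overlap, with a small log2 fold change of 0.21 ± 0.07 (SE; edgeR adjusted p = 0.170).

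Acot9, like the member Acsl4, is X-linked, so the difference in Xist between the groups stands beside its value. Lpin1, a phosphatidate phosphatase, was at 162, 269.7, 301 and 274 CPM in control and 197, 175, 182, 163 and 212 CPM in DKO, with control replicate 1 the lowest library of all (log2 fold change -0.44, adjusted p = 0.189, edgeR). Without that library it was -0.61 (adjusted p = 0.00227). Its relative Lpin3 was at 1.88, 0.315, 0.841 and 1.25 CPM in control and 0.237, 0.678, 0.189, 0.507 and 0.339 CPM in DKO (-1.44 ± 0.51 on the log2 scale, SE; edgeR adjusted p = 0.182). Without control replicate 1, its highest library, the value for Lpin3 was -1.04 (adjusted p = 0.283, edgeR). The synthetase Acsf2 was at 4.50, 5.83, 5.82 and 8.62 CPM in control and 3.38, 4.98, 4.39, 4.01 and 4.06 CPM in DKO. Acsf2 had a log2 fold change of -0.57 (adjusted p = 0.166, edgeR), and of -0.71 without control replicate 1 (adjusted p = 0.0463).

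The other three had lower means in DKO, and each had overlapping groups. Decr2, the peroxisomal reductase for unsaturated chains, was at 13.4, 14.1, 18.7 and 18.6 CPM in control and 11.5, 13.3, 12.4, 11.5 and 13.9 CPM in DKO (log2 fold change -0.37, adjusted p = 0.191, edgeR). Scp2, a peroxisomal thiolase and sterol carrier, was at 189, 129, 123 and 142 CPM in control and 115, 115, 112, 127 and 119 CPM in DKO (log2 fold change -0.31, adjusted p = 0.216, or -0.18 without control replicate 1, adjusted p = 0.142). Etfrf1, a regulator of ETF, was at 29.5, 24.7, 25.1 and 23.0 CPM in control and 19.2, 20.3, 21.2, 23.2 and 18.1 CPM in DKO (log2 fold change -0.33, adjusted p = 0.154).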

How the data were processed

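PolyA RNA of 9 libraries was sequenced after preparation with the Takara SMART-Seq v4 kit and Nextera Flex of Illumina, as the labels state. Whole-number counts per gene were deposited by the authors, without regard to strand and for each strand. Trim Galore 0.6.0, STAR 2.7.8a and the build mm10 are named in the submitters' processing notes, and the annotation is not given in the sources used here. These counts were deposited without normalisation and hold no molecular identifiers. The first strand column held 49.9 to 50.1% of stranded counts, so the unstranded count was used, which omits reads where genes overlap. Of 55471 identifiers, 55230 were found in GENCODE M21 (GRCm38) by number, and coordinates and lengths come from there. Lines naming no gene were left out: unmapped reads were 10.3 to 16.7%, multimapping 5.80 to 6.79%, in no feature 4.01 to 5.20% and ambiguous 4.97 to 5.31% of a library. A chi-square comparison found no duplicate libraries within a group.

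The test was that of edgeR 4.0.16 in R 4.3.3 (robust quasi-likelihood F-test, TMM, filterByExpr with a minimum count of 10 and total of 15), with Benjamini-Hochberg adjustment over 14918 genes at 0.05. CPM and CPM per kb of the principal transcript were computed here. Marker sums used exact permutation tests in scipy 1.17.1. The fit was tested on simulated data.

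The members and lists were chosen with earlier results of these data known, so no test was made over a list. Named with values in every library were members past the adjusted threshold or with an unadjusted p under 0.05, Cpt1a, Cpt2 and Hadha in any case, the highest per length in each role, and of the other lipid genes those past the threshold and up to 10 more by p. What the rule names is not reported here in full. Acadm and Lipa were added after their values were seen. Alternatives were DESeq2 size factors, the DESeq2 1.42.0 Wald test, limma-voom (limma 3.58.1), no filter, a filter of 1 CPM in 4 libraries, leaving out each library, a surrogate variable from sva 3.50.0, the sum over strands and a block for the replicate number.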

Additional observations from a re-analysis of the deposited data

Results flagged for a closer look

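Of 98 groups of 4 or 5 libraries, over named genes and members, 6 held 1 library whose gap to the nearest other, as a share of the group's whole range, was above Dixon's critical value for that number of libraries, which chance gives in about 5% of groups, and 5 of the 6 were control replicate 1. That library was high for Acadm (89.5 CPM, others 68.6 to 71.2), Etfa (136 CPM, others 90.8 to 94.8), Etfb (6.52 CPM, others 3.27 to 3.73) and Phyh (54.1 CPM, others 39.0 to 41.5). It was low for Lipa (61.2 CPM, others 80.3 to 83.4). In DKO, replicate 2 was high for Acadsb (29.6 CPM, others 24.9 to 26.0). Control replicate 1 was the highest control for 15 and the lowest for 14 of the 37 tested members, where all genes give 36.6% and 37.2%. It also had the largest share of unmapped reads, 16.7%.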

How the results depend on the processing

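The 2 targeted genes kept direction and call in every alternative run. The DESeq2 Wald test called 1038 of all genes, 4 members and 7 other lipid genes, limma-voom 996, 4 and 8, and 1 surrogate variable 732, 4 and 7. Leaving out each library gave 179 to 749 genes, 0 to 4 members and 1 to 7 other lipid genes. With control replicates 1 and 3 left out, chosen after seeing the data, 482 genes, 3 members and 4 other lipid genes passed. The cause of these changes was not tested. The added members under other tests were Acadl and Acadsb (DESeq2) and Acadm and Acadsb (voom, surrogate variable and without control replicate 1). The surrogate variable mainly marked control replicate 1 (-0.918, against 0.026 to 0.24 elsewhere), so its run is close to leaving that library out. The voom run weighted libraries by quality. The 17 alternatives other than the replicate block include the run chosen after seeing the data. Over these 17, Acoxl ranged from 1.08 to 2.02 on the log2 scale and passed in 10. Slc27a1 ranged from -1.19 to -0.94 and passed in 13, and Agpat2, Acbd5 and Aqp9 passed in 17, 16 and 14. Among the 33 genes followed over the alternatives, signs reversed for Slc25a20, Pnpla2 and Ppard, all near 0. Slc25a20 was at 0.00 with voom, 0.04 with the surrogate variable and -0.22 to 0.06 leaving out libraries. Pnpla2 was at 0.01 with voom and -0.07 to 0.02 leaving out libraries, and Ppard at -0.08 to 0.11 leaving out libraries. Acox3, not among these 33, went from 0.09 to -0.07 without control replicate 1. The 4 same-numbered pairs did not deviate together (correlations -0.0469, -0.00917, 0.0124 and -0.117). Differently numbered pairs ran from -0.0871 to 0.155. Pairing by number was thus not seen, but 4 correlations are too few to settle it. With the replicate block on 8 libraries, 63 genes, 0 members (5 at an unadjusted p under 0.05) and 0 other lipid genes (13) passed in edgeR. The share of all genes at that unadjusted p is not given for the block, so the 5 and 13 are not read as a result. Depth limits Ppara, Cpt1b, Cpt1c and Acsl6.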
